A study of Mus musculus with 6 samples.

Results

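The genes described here are 39 members of the TGF-beta and BMP signalling pathways: 10 ligands, 12 receptors, 8 Smads, 4 Id genes and 5 antagonists or modulators. They were taken by symbol from a table of 23420 genes, all 39 were found in it, and 36 had enough counts to be tested. RNA was sequenced from endothelial cells of whole mouse embryos at embryonic day 12.5 that carried the alleles Csf1r-iCre and RosatdTomato. In these embryos Cre is driven by the promoter of Csf1r, a myeloid receptor gene, and tdTomato marks a cell in which Cre has acted and the descendants of that cell. The tdTom+ group held 3 libraries from cells with the red reporter, and the tdTom- group held 3 libraries from cells without it. The cells of both groups came from 3 embryos, carried the same alleles and were sorted as PECAM1+ CD45- CD11b- KIT-. The labels do not say which embryo a library came from.

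Ligands of the TGF-beta, activin and BMP groups bind pairs of type II and type I receptor kinases, and the type I kinase phosphorylates the receptor Smads. Smad2 and Smad3 act for TGF-beta and activins and Smad1, Smad5 and Smad9 for BMPs, all with Smad4, while Smad6 and Smad7 inhibit. The Id genes are direct transcriptional targets of BMP signalling. In endothelium the type I receptor Acvrl1, also called ALK1, and the co-receptor endoglin, encoded by Eng, carry the signal of circulating BMP ligands and are needed for normal vessels.

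Library totals ran from 8919887 to 11767956 counts, and 13142 genes of the table were tested. The 8 endothelial markers checked, among them Pecam1 and Cdh5, summed to 6492 to 6828 counts-per-million (CPM) in tdTom+ libraries and 6558 to 6806 CPM in tdTom- libraries. Counts of Ptprc, the gene of CD45, reached 4 in the tdTom+ and 22 in the tdTom- libraries. The libraries were not alike in other markers. Over all tested genes edgeR called 0.769% as higher and 0.814% as lower. The lists were chosen with earlier results of these data known, so their calls are a description of the libraries. The liver sinusoidal list summed to 2367 to 2675 CPM in tdTom+ and 959 to 1099 CPM in tdTom- libraries, with 7 of 7 tested genes higher. The megakaryocyte and platelet list summed to 216 to 410 CPM in tdTom+ and 26.6 to 43.5 CPM in tdTom- libraries, with 4 of 8 higher. The brain endothelial list summed to 983 to 1118 CPM in tdTom+ and 1449 to 1547 CPM in tdTom- libraries, with 5 of 8 lower. The germ cell list summed to 0.187 to 2.11 CPM in tdTom+ and 68.0 to 117 CPM in tdTom- libraries. Its 5 tested genes were called as lower. Of these, Dazl, Dppa3, Dppa5a and Pou5f1 were over the count filter of the test in no tdTom+ library, so their calls are a description. The other was Ddx4. The arterial list summed to 881 to 945 CPM in tdTom+ and 1111 to 1204 CPM in tdTom- libraries, with Jag1 and Gja4 lower. The macrophage list summed to 77.0 to 130 CPM in tdTom+ and 34.6 to 46.1 CPM in tdTom- libraries, with Mrc1, which liver sinusoidal cells also express, higher. Most of that sum was Mrc1, at 104.9, 58.8 and 110.3 CPM in tdTom+ and 24.8, 25.9 and 33.6 CPM in tdTom- libraries. No other gene of the list was called. The hepatoblast list summed to 31.4 to 54.5 CPM in tdTom+ and 62.7 to 262 CPM in tdTom- libraries, and the neural list to 41.1 to 53.8 CPM in tdTom+ and 67.3 to 77.7 CPM in tdTom- libraries, with no gene of either past the edgeR threshold. The endocardial list overlapped, at 507 to 687 CPM in tdTom+ and 593 to 834 CPM in tdTom- libraries, with Gata5 and Cdh11 lower. The erythroid list also overlapped, at 189 to 266 CPM in tdTom+ and 138 to 240 CPM in tdTom- libraries, with 2 of 8 genes higher, Klf1 and Gata1. The mesenchyme and mural list overlapped too, at 72.1 to 255 CPM in tdTom+ and 163 to 470 CPM in tdTom- libraries. None of its 10 genes passed with edgeR, while all 10 had log2 fold changes below 0, from -2.35 to -0.33. The groups did not overlap for 3 of the 10, where this was so for 17.2% of all tested genes.

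Of the 36 tested members, edgeR called 2 as higher in tdTom+ cells and 2 as lower. The ligand Bmp2 and the co-receptor Tgfbr3 rose, the type I receptor Bmpr1a fell, and the type I receptor Bmpr1b was nearly absent from the tdTom+ libraries. The other 32 did not pass (quasi-likelihood F-test of edgeR, adjusted by Benjamini-Hochberg over all tested genes, threshold 0.05). Bmpr1b was over the count filter in no tdTom+ library, so it entered the test only through its tdTom- libraries, and its values are a description. With it, 11.1% of the tested members were called, where the background over all tested genes was 1.58% in either direction, 0.769% higher and 0.814% lower. Among the 35 tested members that were over the filter in both groups, 3 were called, or 8.57%, against 1.35% of the 13012 genes of which this was also true. An unadjusted p under 0.05 was reached by 11 of these 35 members, or 31.4%, against 10.1% of those genes and 10.7% of all tested genes. The libraries of the groups did not overlap for 12 of the 35, or 34.3%, against 16.4% of those genes and 17.2% of all tested genes. All tdTom+ libraries were higher for 3 of the 35, or 8.57%, close to the 1012 of the 13012 genes and the 7.88% of all tested genes that behaved so. All were lower for 9 of the 35, where this was so for 1122 of the 13012 genes and 9.35% of all tested genes. The median log2 fold change, tdTom+ minus tdTom-, was -0.10 over the 35 members and 0.0011 over the 13012 genes. Inhba, Smad9 and Grem1 were too low to test. In the authors' deposited table, turned to the same direction, 2 members were higher and 3 lower at the same threshold, with Acvrl1 as the added one, against a background of 3.32%. With the replicate number as a block the same 4 members were called, where 2.24% of all tested genes were, and limma-voom called Bmp2 and Bmpr1a, where 1.13% of all were.

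**Figure D1:**
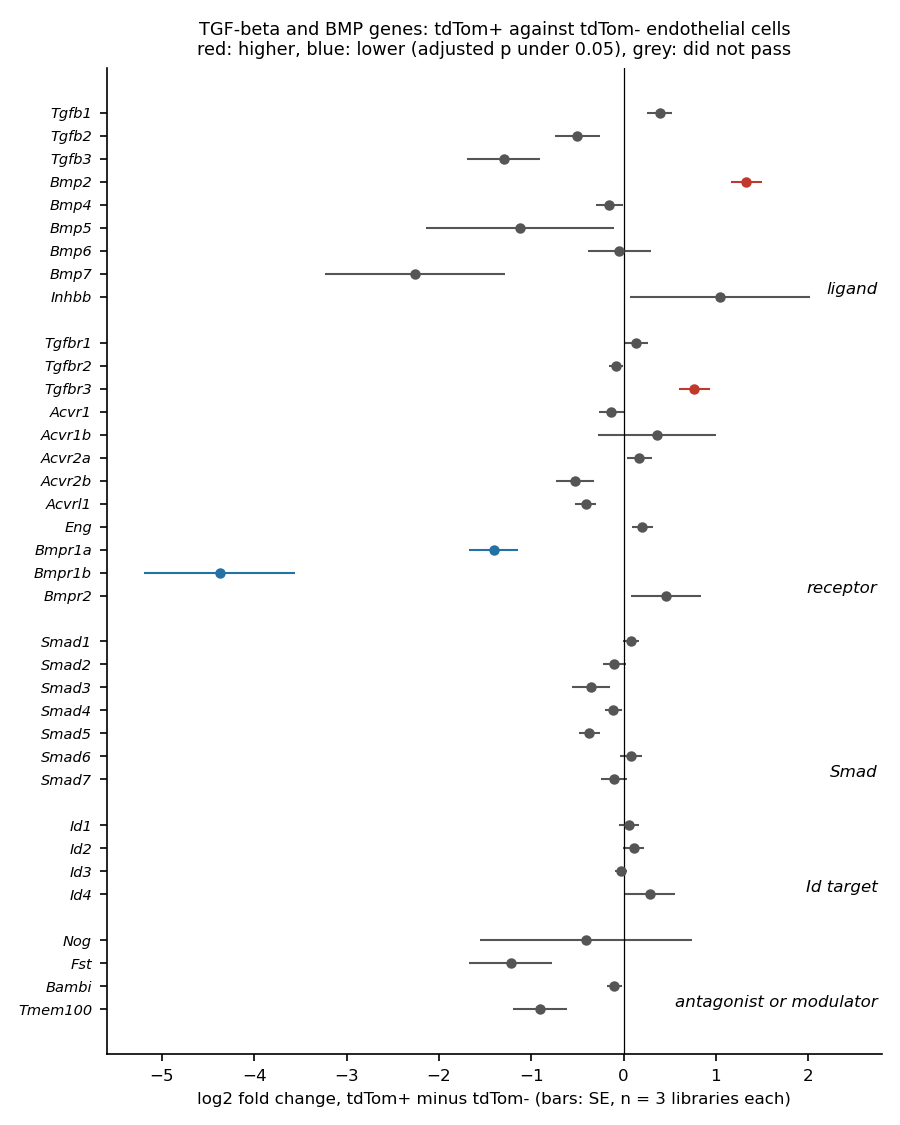
Log2 fold change, tdTom+ minus tdTom-, of the 36 tested members by class, with bars for the SE from edgeR and n = 3 libraries in each group. Red points (Bmp2 and Tgfbr3) were higher and blue points (Bmpr1a and Bmpr1b) were lower in tdTom+ cells. Bmpr1b is a description only, since only its tdTom- libraries took it past the filter. Grey points did not pass, and the 4 Id genes lie close to 0.

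Among the ligands, Bmp2 was the member that changed. BMP2 is a secreted ligand that signals through the BMP type I receptors, and in adult liver its source is largely the sinusoidal endothelium. Bmp2 (chromosome 2, 133552159 to 133562885, mm10) had 116.5, 98.3 and 83.3 CPM in tdTom+ replicates 1 to 3, against 47.1, 37.7 and 33.7 CPM in tdTom- replicates 1 to 3. Each tdTom+ library was above every tdTom- library. The mean was 99.4 ± 16.6 CPM in tdTom+ cells, against 39.5 ± 6.86 CPM in tdTom- cells (SD, n = 3), which is a 2.52-fold rise and a log2 fold change of 1.33 with an SE of 0.17 (edgeR adjusted p = 0.003175). It passed in all 12 alternatives, with log2 fold changes from 1.20 to 1.48 and adjusted p from 3.192e-11 to 0.03097. The liver sinusoidal markers were higher in the same libraries, and their part in the Bmp2 result was not tested. In sorted bulk samples, more cells of a type and more RNA per cell cannot be told apart.

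The other BMP ligands did not move with Bmp2. Bmp4, a ligand of early vessel and mesoderm formation, had 31.8 ± 0.631 CPM in tdTom+ cells, against 35.4 ± 1.13 CPM in tdTom- cells (SD, n = 3). The log2 fold change of -0.15 did not pass (edgeR adjusted p = 0.7985), with a 95% interval from -0.48 to 0.17. Bmp6, a second BMP of liver sinusoidal endothelium that controls hepcidin in the adult, had 12.2 ± 2.22 CPM in tdTom+ cells, against 12.6 ± 5.18 CPM in tdTom- cells (SD, n = 3). Its interval was wide, from -0.80 to 0.71 on the log2 scale. Bmp7 had 16, 9 and 0 counts in the tdTom+ libraries, against 39, 53 and 23 counts in the tdTom- libraries. The groups did not overlap, but its log2 fold change of -2.26, with an SE of 0.97, did not pass (edgeR adjusted p = 0.4316). Bmp5 had at most 27 counts in a tdTom+ and 51 in a tdTom- library, and 49.1% of its annotated exon bases are shared with an antisense gene, so its level is uncertain.

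Because both genes are read from the same library, the ratio of Bmp2 to Bmp4 counts needs no scaling between libraries. It was 3.68, 3.14 and 2.56 in the tdTom+ libraries, against 1.35, 1.08 and 0.918 in the tdTom- libraries. Per kilobase of annotated exon, Bmp2 made up 58.7 ± 4.94% of the summed level of the 5 BMP ligands in tdTom+ and 32.9 ± 3.01% in tdTom- cells (SD, n = 3). Bmp4 made up 32.7 ± 3.18% of it in tdTom+ and 51.3 ± 5.91% in tdTom- cells. The leading BMP ligand per length was thus Bmp2 in all tdTom+ libraries and Bmp4 in all tdTom- libraries. By counts alone Bmp2 was above Bmp4 in tdTom- replicates 1 and 2 as well. The order in the tdTom- libraries thus depends on the exon lengths used, and is approximate. The summed level of the 5 was 47.4 ± 4.05 CPM per kilobase in tdTom+ and 33.6 ± 2.83 CPM per kilobase in tdTom- cells (SD, n = 3).

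Of the 3 TGF-beta ligands none passed with edgeR. The groups did not overlap for 2 of them, where this was so for 17.2% of all tested genes. Tgfb1, which platelets also store, was the ligand with the highest level per length in both groups. It had 152.5, 145.3 and 151.1 CPM in the tdTom+ libraries, against 131, 88.5 and 123 CPM in the tdTom- libraries. Its log2 fold change was 0.39 with an SE of 0.13 (edgeR adjusted p = 0.2676), and the megakaryocyte and platelet list was higher in the same libraries, with its part not tested. Tgfb3 had 7.72, 5.22 and 3.18 CPM in the tdTom+ libraries, against 17.4, 8.72 and 13.7 CPM in the tdTom- libraries. Its log2 fold change was -1.30 with an SE of 0.40 (edgeR adjusted p = 0.1881), and 12.4% of its exon bases are shared with genes of the opposite strand. Tgfb2 overlapped between the groups, at 50.3 ± 16.5 CPM in tdTom+ cells, against 71.2 ± 19.3 CPM in tdTom- cells (SD, n = 3). Tgfb1 made up 86.0 ± 3.97% of the summed level per length of the 3 genes in tdTom+ and 75.0 ± 2.61% in tdTom- cells (SD, n = 3). The activin subunit genes were near the limit of detection: Inhba had 0, 0 and 8 counts in the tdTom+ libraries, against 33, 8 and 11 in the tdTom- libraries. Inhbb had 7, 15 and 26 counts in the tdTom+ libraries, against 16, 4 and 2 in the tdTom- libraries, and did not pass (edgeR adjusted p = 0.7916).

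**Figure D2:**
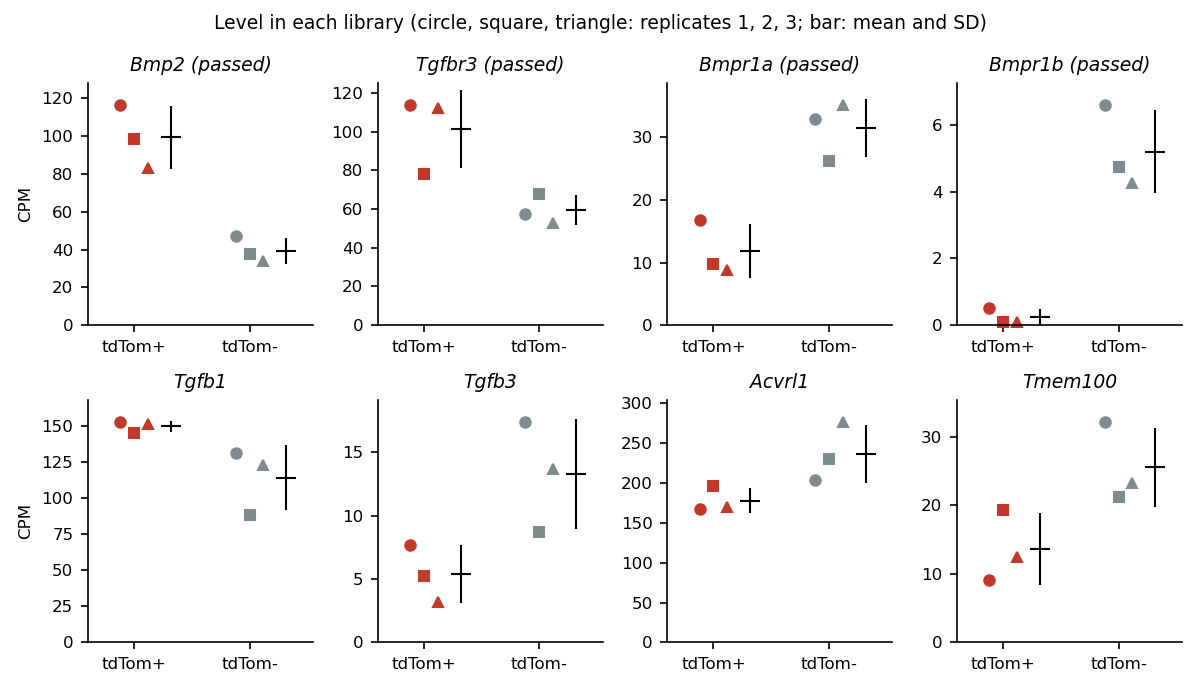
CPM of 8 members in each library, tdTom+ left of tdTom-, with symbols for replicates 1 to 3 and bars for the mean and SD. In all 8 panels the groups do not overlap, which was so for 17.2% of all tested genes. Bmp2, Tgfbr3 and Bmpr1a passed the test, while Tgfb1, Tgfb3, Acvrl1 and Tmem100 did not. Bmpr1b is marked as passed, but only its tdTom- libraries took it past the filter, so nothing is read from its p.

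The receptors held 3 of the 4 calls, of which that of Bmpr1b is a description only. The 2 called as lower, Bmpr1a and Bmpr1b, encode the type I receptors ALK3 and ALK6, which bind BMP2 and BMP4 and phosphorylate Smad1, Smad5 and Smad9. Because both were lower, sequence upstream of their RefSeq start sites is shown to let them be compared (RefSeq, GRCm38.p6, minus strand, 5′ to 3′). Of the 39 members, 26 were matched to a RefSeq start site.
Bmpr1a, chr14:34502688-34502796: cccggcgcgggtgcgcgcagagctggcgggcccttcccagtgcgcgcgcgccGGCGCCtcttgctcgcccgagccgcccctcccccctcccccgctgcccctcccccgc
Bmpr1b, chr3:141982265-141982514: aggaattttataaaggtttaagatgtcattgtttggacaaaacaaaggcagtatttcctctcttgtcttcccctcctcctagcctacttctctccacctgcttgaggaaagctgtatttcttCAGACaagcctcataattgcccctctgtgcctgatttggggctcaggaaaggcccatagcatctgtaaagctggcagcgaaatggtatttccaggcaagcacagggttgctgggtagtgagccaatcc
For Bmpr1a these are the 109 bases of the 250 before the start that lie in no annotated exon. The Bmpr1a start lies inside the annotated gene, which reaches further upstream, to 34503341. For Bmpr1b all 250 are shown, for the most upstream of its 3 listed starts. Before start 2 there was also 1 CAGAC match, and before start 3 there were 0. All 3 starts lie inside the annotated gene, which reaches further upstream, to 142169425. Capitals mark a match to GGCGCC, a GC-rich element of BMP-responsive Smads, in Bmpr1a and to CAGAC, the Smad box, in Bmpr1b, each searched on both strands, and the matches do not overlap. Of 32817 such windows of 250 bases, 9.59% held GGCGCC and 42.2% held CAGAC. The full windows differ in composition, with 78.8% G and C and 36 CpG in Bmpr1a, against 46.8% and 1 CpG in Bmpr1b. The median over all windows was 52.4% and 6 CpG.

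Bmpr1a (chromosome 14, 34410734 to 34503341) had 16.8, 9.80 and 8.88 CPM in the tdTom+ libraries, against 32.9, 26.2 and 35.2 CPM in the tdTom- libraries. No tdTom+ library reached the lowest tdTom- library. The mean was 11.8 ± 4.31 CPM in tdTom+ cells, against 31.4 ± 4.63 CPM in tdTom- cells (SD, n = 3), and the log2 fold change was -1.41 with an SE of 0.27 (edgeR adjusted p = 0.02715). The call ended when any library but tdTom+ replicate 1 was left out (adjusted p between 0.05381 and 0.1478), with log2 fold changes between -1.75 and -1.24 in all alternatives. The arterial, brain endothelial and germ cell lists were lower in the same libraries, and their part in the Bmpr1a result was not tested.

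Bmpr1b (chromosome 3, 141837136 to 142169425) was almost absent from tdTom+ libraries and low in tdTom- libraries. It had 6, 1 and 1 counts in the tdTom+ libraries, against 68, 56 and 38 counts in the tdTom- libraries. Its fitted log2 fold change was -4.37 with an SE of 0.82, and nothing is read from its p, since only its tdTom- libraries took it past the filter. Without tdTom+ replicate 1, which held 6 of the 8 tdTom+ counts, the value was -5.64, and over all alternatives it lay between -5.64 and -4.00. Over the group sums of 8 and 162 counts, tdTom- cells had 21.5 times the level of tdTom+ cells, with an exact 95% interval from 10.7 to 50.7 that covers counting error only. Its p was not under the threshold in every alternative, and nothing is read from that either, for the same reason. The germ cell markers were also near 0 in the tdTom+ libraries, with Dazl, Dppa3 and Pou5f1 at 0 counts in all 3, and their part in the Bmpr1b result was not tested.

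Tgfbr3 encodes betaglycan, a co-receptor that presents TGF-beta2 and also binds BMP2 and inhibin. Tgfbr3 (chromosome 5, 107106570 to 107289629) had 113.8, 78.0 and 112 CPM in the tdTom+ libraries, against 57.3, 67.9 and 53.0 CPM in the tdTom- libraries. Replicate 2 of both groups lay closest to the other group. The mean was 101.3 ± 20.2 CPM in tdTom+ cells, against 59.4 ± 7.68 CPM in tdTom- cells (SD, n = 3), a 1.70-fold rise and a log2 fold change of 0.77 with an SE of 0.16 (edgeR adjusted p = 0.04566). The call ended when any library but tdTom+ replicate 2 was left out (adjusted p between 0.08331 and 0.2219), and also under limma-voom (0.06565).

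The receptors that dominate endothelial cells were abundant in both groups. Eng was the receptor gene with the highest level per length, at 186 ± 12.3 CPM per kilobase in tdTom+ and 161 ± 27.3 CPM per kilobase in tdTom- cells (SD, n = 3). In the libraries it had 631, 645.6 and 713.2 CPM in tdTom+, against 656.7, 467.8 and 604.4 CPM in tdTom-, and the groups overlapped. Its log2 fold change was 0.20, with a 95% interval from -0.04 to 0.45 (edgeR adjusted p = 0.5835). Acvrl1 had 167.8, 196.4 and 169.7 CPM in the tdTom+ libraries, against 203.7, 229.9 and 276.3 CPM in the tdTom- libraries. All tdTom+ libraries were lower, yet the log2 fold change of -0.41, with an SE of 0.12, did not pass (edgeR adjusted p = 0.1427), while it passed with DESeq2 (adjusted p = 0.02516), which called 3.21% of all genes it tested. The count ratio of Eng to Acvrl1 was 3.76, 3.29 and 4.20 in the tdTom+ libraries, against 3.22, 2.03 and 2.19 in the tdTom- libraries. The lowest tdTom+ value, 3.29, lay close to the highest tdTom- value, 3.22. Several such ratios were formed, and how often ratios of other genes part the groups was not computed. The arterial and brain endothelial lists were lower in the same tdTom+ libraries, and their part in the Acvrl1 values was not tested.

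Among the 4 type I receptors that signal through Smad1, Smad5 and Smad9, Acvrl1 made up 72.6 ± 2.36% of the summed level per length in tdTom+ and 72.5 ± 4.39% in tdTom- cells (SD, n = 3). Acvr1, the type I receptor ALK2, made up 24.3 ± 1.22% in tdTom+ and 20.3 ± 3.83% in tdTom- cells. Bmpr1a made up 3.04 ± 1.16% in tdTom+ and 6.09 ± 0.875% in tdTom- cells, and Bmpr1b 0.0640 ± 0.0685% in tdTom+ and 1.06 ± 0.343% in tdTom- cells. Bmpr1a and Bmpr1b were thus a small share of this role in either group. The summed level of the role was 64.6 ± 5.32 CPM per kilobase in tdTom+ and 85.6 ± 8.09 CPM per kilobase in tdTom- cells (SD, n = 3).

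The TGF-beta receptor pair did not pass. Tgfbr2, the type II receptor, had 318 ± 3.49 CPM in tdTom+ cells, against 337 ± 26.2 CPM in tdTom- cells, and Tgfbr1, the type I receptor ALK5, had 106 ± 14.7 CPM in tdTom+ cells, against 96.5 ± 5.22 CPM in tdTom- cells (SD, n = 3). The 95% interval of the log2 fold change was -0.25 to 0.08 for Tgfbr2 and -0.13 to 0.40 for Tgfbr1, so a doubling or a halving lies outside both. Of the type II receptors for activins and BMPs, Acvr2b did not overlap, at 18.1 ± 3.52 CPM in tdTom+ cells, against 26.0 ± 0.455 CPM in tdTom- cells (SD, n = 3), with a log2 fold change of -0.53 that did not pass (edgeR adjusted p = 0.3421). Acvr2a and Acvr1 had log2 fold changes of 0.17 and -0.13. Bmpr2, the BMP type II receptor, was low at 10.2 ± 3.67 CPM in tdTom+ cells, against 7.33 ± 2.41 CPM in tdTom- cells, and Acvr1b, the activin receptor ALK4, was at 3.36 ± 2.19 CPM in tdTom+ cells, against 2.60 ± 0.654 CPM in tdTom- cells (SD, n = 3). Their intervals were wide, from -0.37 to 1.30 and from -1.04 to 1.78 on the log2 scale.

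**Figure D3:**
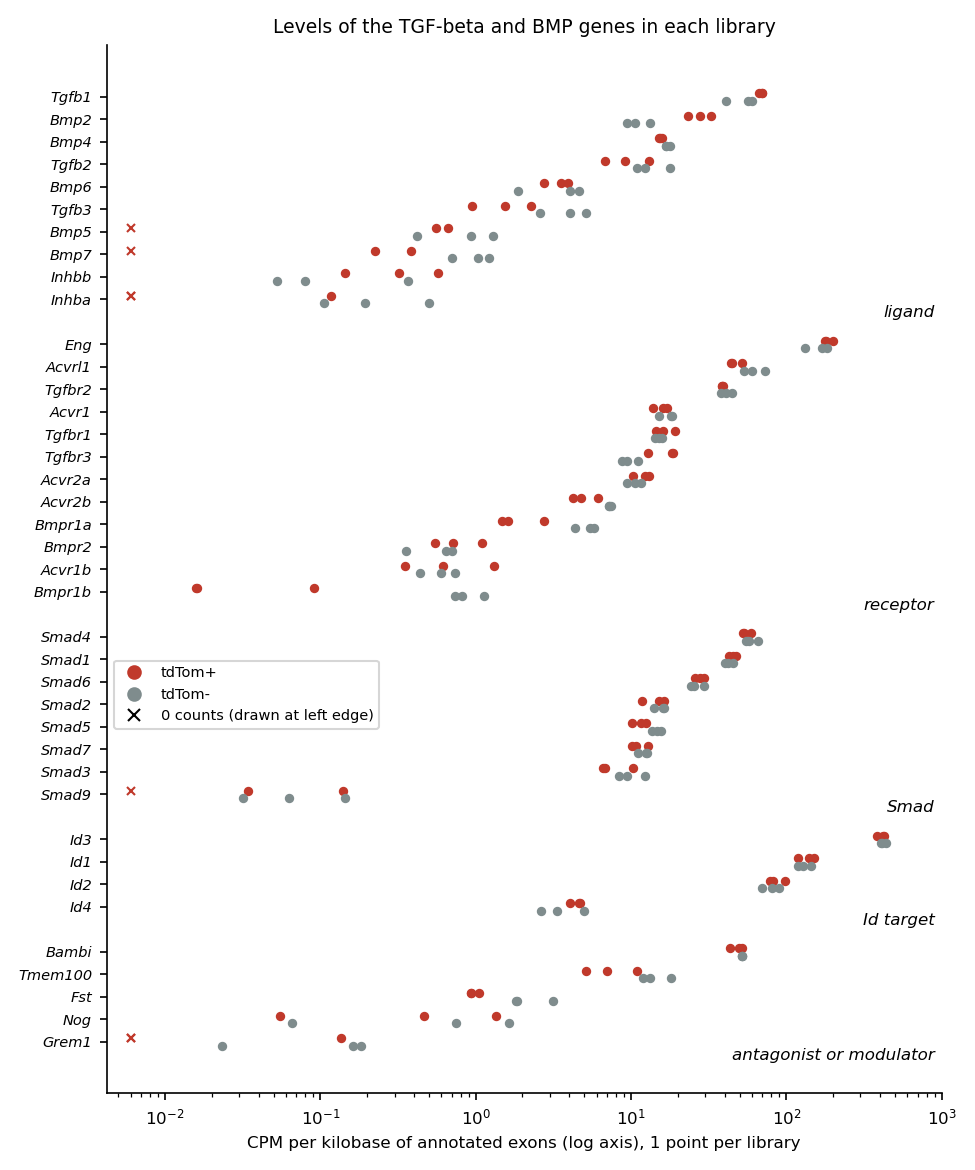
CPM per kilobase of annotated exons for all 39 members in each library on a log axis, sorted by level within each class, with a cross at the left edge for a library with 0 counts. Id3, Eng and Id1 have the highest levels in both groups. Bmp2, Tgfbr3 and Bmpr1a passed the test, and their groups do not overlap. The groups of Bmpr1b do not overlap either, but its values are a description only.

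None of the 7 tested Smads was called, by edgeR, DESeq2 or limma-voom. Of them 1 had an unadjusted p under 0.05 in edgeR, where 10.7% of all tested genes had. That gene was Smad5, a BMP receptor Smad, with 89.5, 72.6 and 83.2 CPM in the tdTom+ libraries, against 105.9, 112.6 and 98.2 CPM in the tdTom- libraries. The groups did not overlap, and the log2 fold change of -0.37, with an SE of 0.12, did not pass (edgeR adjusted p = 0.205). Smad1, the more abundant BMP receptor Smad per length, had 233, 245.1 and 219.7 CPM in the tdTom+ libraries, against 208.4, 234.6 and 216.6 CPM in the tdTom- libraries. Smad4, the shared partner and the Smad with the highest level per length, had 212.1, 189.5 and 187.2 CPM in tdTom+ and 204.1, 234.8 and 196.6 CPM in tdTom- libraries. Both overlapped between the groups, with log2 fold changes of 0.08 and -0.11. Smad3 had 33.8, 52.5 and 34.6 CPM in the tdTom+ libraries, against 63.1, 42.8 and 48.3 CPM in the tdTom- libraries, so replicate 2 of each group lay on the other side (log2 fold change -0.35, edgeR adjusted p = 0.6366). Smad2 and the inhibitory Smad6 and Smad7 had log2 fold changes of -0.10, 0.08 and -0.10. Smad9 had at most 8 counts in any library.

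The Id genes, which encode inhibitors of basic helix-loop-helix factors, were among the most abundant members and none was called, by edgeR, DESeq2 or limma-voom, nor did any reach an unadjusted p under 0.05 in edgeR. Id3, the highest per length, had 493, 543.7 and 536.3 CPM in the tdTom+ libraries, against 524.2, 521 and 558.6 CPM in the tdTom- libraries. Id1 had 138.8, 175.6 and 161.2 CPM in the tdTom+ libraries, against 149, 168.3 and 138.4 CPM in the tdTom- libraries. Id2 had 239.9, 200.8 and 192 CPM in tdTom+ and 218.9, 169.5 and 198 CPM in tdTom- libraries. The groups overlapped for each of these genes. The log2 fold change was -0.03 for Id3, with a 95% interval from -0.18 to 0.12, then 0.06 for Id1, from -0.18 to 0.31, and 0.11 for Id2, from -0.14 to 0.36. For these genes changes of the size of that of Bmp2 lie outside the interval. Id4 was lower and less precise, with 15.6, 18.1 and 17.7 CPM in tdTom+ and 19.3, 12.8 and 10.1 CPM in tdTom- libraries and an interval from -0.32 to 0.88. The summed level of the 4 genes per length was 638 ± 28.2 CPM per kilobase in tdTom+ and 633 ± 7.30 CPM per kilobase in tdTom- cells (SD, n = 3). Id3 made up 64.3 ± 0.972% of it in tdTom+ and 66.1 ± 1.92% in tdTom- cells.

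**Figure D4:**
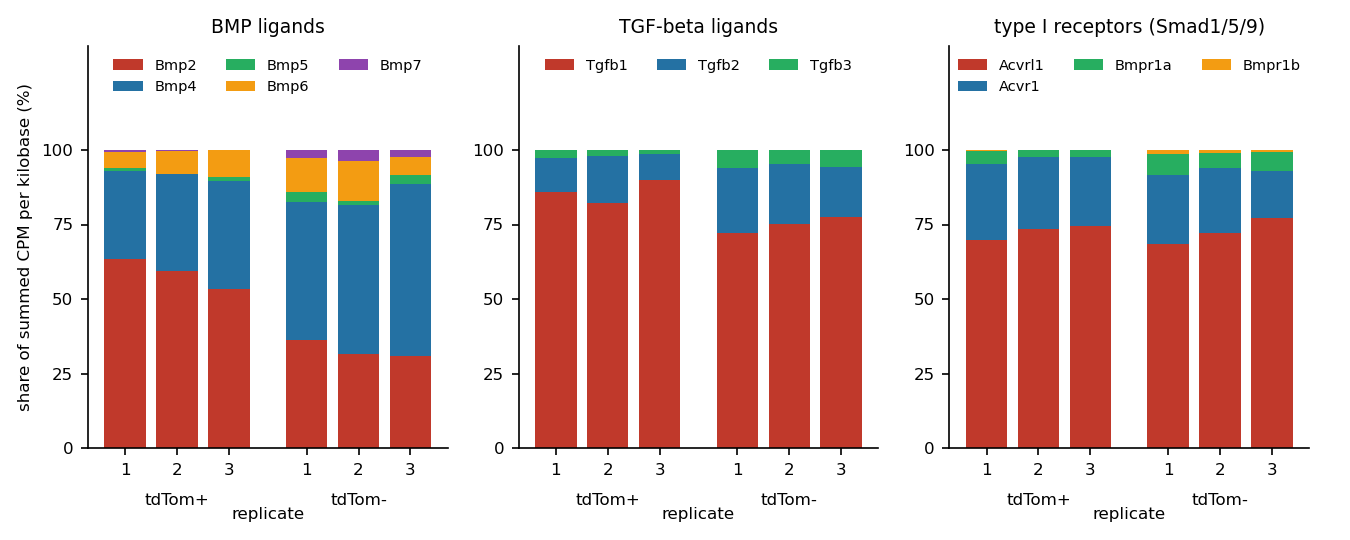
Share of the summed CPM per kilobase taken by each gene within the BMP ligands, the TGF-beta ligands and the type I receptors that signal through Smad1, Smad5 and Smad9, with a bar for each library. Bmp2 takes 53.5 to 63.3% of the BMP ligands in tdTom+ and 30.8 to 36.3% in tdTom- libraries, while Acvrl1 leads its receptors at 68.3 to 77.1% in every library.

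No antagonist or modulator was called, by edgeR, DESeq2 or limma-voom. Of the 4 tested, 2 had an unadjusted p under 0.05 in edgeR, where 10.7% of all tested genes had. Tmem100, a membrane protein gene induced in endothelium by BMP9 and BMP10 through ALK1, had 9.12, 19.3 and 12.4 CPM in the tdTom+ libraries, against 32.1, 21.2 and 23.3 CPM in the tdTom- libraries. The groups did not overlap, and the log2 fold change of -0.91, with an SE of 0.29, did not pass (edgeR adjusted p = 0.2213). The part of the lower arterial and brain endothelial lists in these values was not tested. Fst, which encodes the activin-binding protein follistatin, had 2.63, 2.66 and 2.99 CPM in the tdTom+ libraries, against 8.92, 5.16 and 5.26 CPM in the tdTom- libraries. It too did not overlap and did not pass, with a log2 fold change of -1.22 with an SE of 0.45 (edgeR adjusted p = 0.318). Bambi, a receptor-like protein without a kinase and the antagonist with the highest level per length, had 219.7, 263.4 and 251.5 CPM in the tdTom+ libraries, against 261.9, 261.9 and 263.3 CPM in the tdTom- libraries. The secreted BMP inhibitors Nog and Grem1 were scarce in both groups. Nog, encoding noggin, had 9, 25 and 1 counts in the tdTom+ libraries, against 13, 33 and 1 in the tdTom- libraries, with the lowest value in replicate 3 of each group, and Grem1 had at most 6 counts in a tdTom+ and 9 in a tdTom- library.

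A further 92 genes of these pathways were counted, of which 65 could be tested. Of these, 4 fell and 61 did not pass, or 6.15% called against the background of 1.58%. None was called higher with edgeR or limma-voom. At an unadjusted p under 0.05 in edgeR, 4 of the 65 were higher and 14 lower. Of all 13142 tested genes 625 were higher and 780 lower at that cut, so the 4 higher are near the background. DESeq2 called 3 as higher and 9 as lower, where it called 209 and 288 of all 15476 genes it tested. Bmp15 is among these 14 and these 9 as a description only, since it was over the count filter in no tdTom+ library. The 4 that fell all act outside the cell. Ltbp3 and Ltbp4 encode latent TGF-beta binding proteins, which hold latent TGF-beta in the matrix. Ltbp3 had 5.0, 9.98 and 7.29 CPM in the tdTom+ libraries, against 30.2, 24.3 and 23.7 CPM in the tdTom- libraries, a log2 fold change of -1.81 with an SE of 0.28 (edgeR adjusted p = 0.01012). Ltbp4 had 86.2, 99.1 and 91.2 CPM in the tdTom+ libraries, against 184.9, 188 and 132.2 CPM in the tdTom- libraries, a log2 fold change of -0.87 with an SE of 0.14 (edgeR adjusted p = 0.0103). Neither gene overlapped between the groups. Leaving out any of the tdTom- libraries ended the Ltbp3 call (adjusted p between 0.05198 and 0.07216). The Ltbp4 call was lost on leaving out tdTom+ replicate 1, tdTom- replicate 1 or tdTom- replicate 2 (between 0.06031 and 0.07129).

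Bmp1, which despite its name encodes a metalloprotease that cleaves procollagens and the BMP antagonist chordin, had 115.4, 135.1 and 124.8 CPM in the tdTom+ libraries, against 174.4, 170.9 and 162.8 CPM in the tdTom- libraries (log2 fold change -0.44, SE 0.09, edgeR adjusted p = 0.04219). Fstl1, a secreted follistatin-like glycoprotein gene, had 465.4, 465.9 and 361.6 CPM in the tdTom+ libraries, against 629.4, 580.1 and 575.6 CPM in the tdTom- libraries (log2 fold change -0.47, SE 0.10, edgeR adjusted p = 0.04379). Both calls rest on small margins. The Fstl1 call was lost on leaving out each of the 6 libraries in turn (adjusted p between 0.05026 and 0.237), and the Bmp1 call when any but tdTom+ replicate 2 was (0.07825 to 0.238). The mesenchyme and mural markers, whose sums overlapped but whose 10 genes all had log2 fold changes below 0, lay in the same direction as these 4 genes, and their part was not tested.

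Thbs1, encoding thrombospondin 1, an activator of latent TGF-beta, belongs to the same class as Ltbp3, Ltbp4 and Bmp1, and it was picked once its values had been seen. It had 188.1, 190.7 and 113.9 CPM in the tdTom+ libraries, against 109.2, 78.6 and 65.3 CPM in the tdTom- libraries. Every tdTom+ library was higher, the opposite direction to the 4 genes that fell, and its log2 fold change of 0.96, with an SE of 0.22, did not pass (edgeR adjusted p = 0.05984). It passed with DESeq2 and with the replicate block. Platelets also hold thrombospondin 1, and the part of the higher megakaryocyte and platelet list was not tested.

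In the remaining classes of this wider list no gene passed with edgeR. Lrrc32, encoding GARP, a cell-surface anchor of latent TGF-beta, had 231.3, 226.3 and 289.2 CPM in the tdTom+ libraries, against 185.1, 194.3 and 188.6 CPM in the tdTom- libraries (edgeR adjusted p = 0.09994). Neo1, encoding neogenin, a receptor of the BMP co-receptors of the RGM family, had 36.4, 24.4 and 17.6 CPM in the tdTom+ libraries, against 48.4, 41.6 and 47.7 CPM in the tdTom- libraries (edgeR adjusted p = 0.1613). Both had groups that did not overlap, in opposite directions. Ctgf, a common TGF-beta target, had 304.6, 273.2 and 334 CPM in tdTom+ and 250.7, 243.7 and 235.3 CPM in tdTom- libraries, with a log2 fold change of 0.32 with an SE of 0.09 (edgeR adjusted p = 0.1183). Msx1, a homeobox target of BMPs, had a log2 fold change of -1.13 with an SE of 0.34 (edgeR adjusted p = 0.1762). Among the intracellular regulators, Tgfbrap1 had a log2 fold change of 0.74 and Pmepa1 one of -0.45 (edgeR adjusted p = 0.1238 and 0.2921). None of the 21 tested genes of that class was called by edgeR, DESeq2 or limma-voom. An unadjusted p under 0.05 in edgeR was reached by 2 of them, or 9.52%, near the 10.7% of all tested genes.

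The ligands of this wider list were scarce. Bmp15, an oocyte ligand, had 0, 2 and 0 counts in the tdTom+ libraries, against 30, 24 and 20 counts in the tdTom- libraries. Lefty2, a Nodal inhibitor, had 0, 2 and 10 counts in the tdTom+ libraries, against 93, 128 and 5 counts in the tdTom- libraries (edgeR adjusted p = 0.1509). Bmp15 was over the count filter in no tdTom+ library, so nothing is read from its p. Lefty2 overlapped between the groups, with 5 counts in tdTom- replicate 3 and 10 in tdTom+ replicate 3. DESeq2 called Lefty2 as lower, and nothing is read from its call of Bmp15 for the reason given. The germ cell markers were near 0 in the tdTom+ libraries as well, with their part not tested. Unlike Lefty2, they were not low in tdTom- replicate 3, where Dazl had 279 counts, against 183 and 255 in tdTom- replicates 1 and 2. Gdf2 and Bmp10, which encode the ALK1 ligands BMP9 and BMP10 and were chosen after their values were seen, were barely detected. Gdf2 had 0 counts in each tdTom+ library, against 6, 2 and 4 in the tdTom- libraries, and Bmp10 had 0 counts in every library. A count of 0 allows up to 3 counts, or 0.263 to 0.280 CPM in a tdTom+ library and 0.254 to 0.336 CPM in a tdTom- library.

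**Figure D5:**
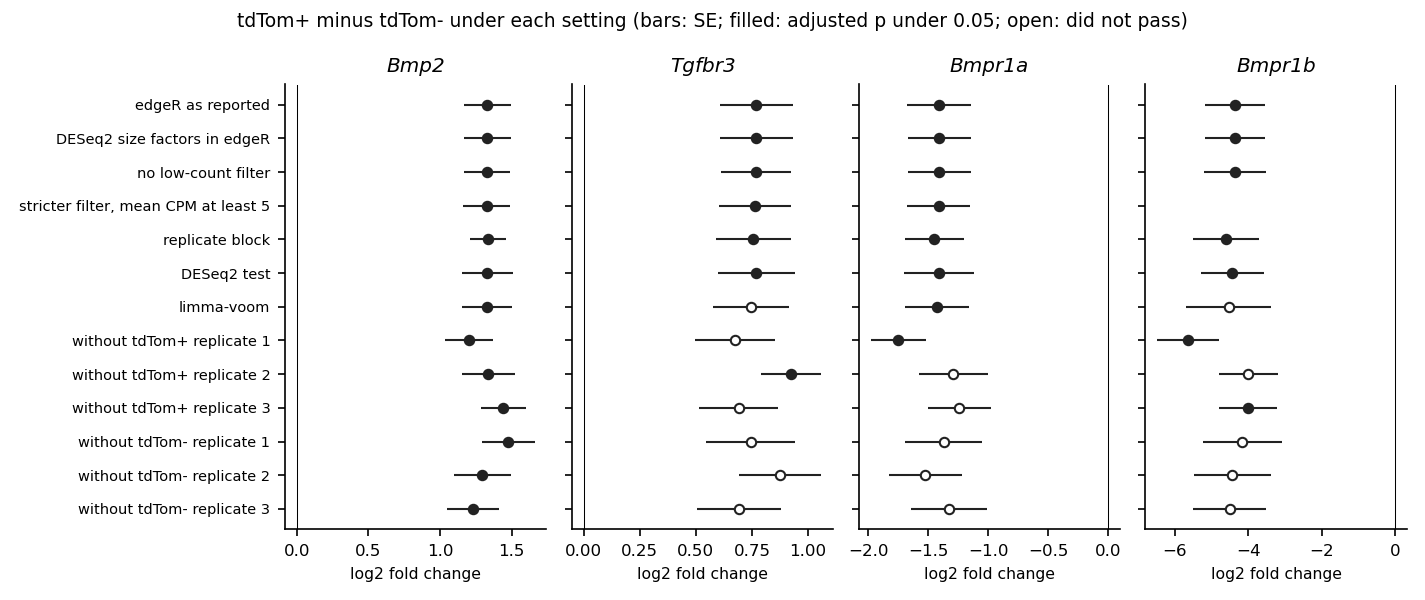
Log2 fold change, tdTom+ minus tdTom-, of the 4 members called, under the test as reported and each alternative, with bars for the SE and filled points where the adjusted p was under 0.05. Bmp2 passed in all 12 alternatives, Bmpr1a in 7 and Tgfbr3 in 6. Bmpr1b could be tested in 11 of them. Nothing is read from which of its points are filled, since only its tdTom- libraries took it past the filter. The direction of each of the 4 was kept throughout.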

How the data were processed

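The authors deposited raw read counts, whole numbers for each gene in each library. Per the labels' protocols, cDNA was amplified with SMART-seq V4 and libraries were made with Nextera XT, which does not mark strand. Per the submitters' processing notes, the tools were featureCounts 1.4.6, STAR 2.5.2b, Trimmomatic 0.36.4, DESeq2 and Picard 2.7.1.1, and the build mm10, with no role or order given. The table also held the authors' p-value and log2 fold change columns, which run tdTom- over tdTom+, and the sign was turned round. The 6 normalized columns were not used.

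The test was the robust quasi-likelihood F-test of edgeR 4.0.16 (R 4.3.3), two-sided, after TMM scaling and filterByExpr at a minimum count of 10. P-values were adjusted over 13142 genes by Benjamini-Hochberg, at a threshold of 0.05. Dividing the log2 fold change by the root of F gave its SE. CPM uses TMM-scaled library sizes. Levels per kilobase divide by the union of annotated GENCODE exons on GRCm38, while the annotation the authors counted with is not stated in the labels, so the order of levels between genes is approximate. Intervals and the floor of 3 counts cover reads, not molecules. Same-group libraries differed beyond sampling noise, at a chi-square of 8.18 to 19.7 per gene. The labels do not tie libraries to embryos. By Xist and Ddx3y counts, replicate 3 of both groups had a female pattern and the other 4 libraries a male one, so replicate 3 holds cells of another embryo than replicates 1 and 2. Whether replicates 1 and 2 differ in embryo is not shown, and p-values measure the spread between these libraries. Scripts were tested on simulated data.

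Alternatives were DESeq2 1.42.0, its size factors, limma-voom (limma 3.58.1), other filters (no filter, or a mean of at least 5 CPM), a replicate block and leaving out each library. All members are accounted for. Values per library are given for those that passed, up to 4 of each class with the smallest p and the highest per length, and of the wider list for those that passed and otherwise up to 2 of a class. The members and lists were chosen with earlier results of these data known.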

Additional observations from a re-analysis of the deposited data

How the results depend on the processing

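No tested member changed direction while called, and DESeq2 size factors or no low-count filter changed no member's call. The members called were 2 higher and 2 lower, with Bmpr1b, a description only, among the lower. Leaving out 1 library gave 1 to 2 higher and 0 to 2 lower. With limma-voom 1 was higher and 1 lower, and with the stricter filter 1 was lower, since Bmpr1b was then not tested. Over all genes, 101 were higher and 107 lower; these were 209 and 288 with DESeq2, 37 to 97 and 25 to 92 without a library. For the wider list, with 0 higher and 4 lower, DESeq2 gave 3 and 9, with Bmp15, a description only, among the 9. Leaving out a library gave 0 to 1 and 0 to 3. The cause of these shifts was not tested, apart from the smaller number of samples when a library is left out.

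The samples share a replicate number, and the labels do not tie it to an embryo. Between same-numbered libraries, deviations from group means correlated at 0.105, 0.0892 and 0.161 for numbers 1, 2 and 3, and every library correlated best with its own number, a hint from the data only. Sex followed the number as well: Xist had 1224 counts in tdTom+ replicate 3 and 571 in tdTom- replicate 3, with at most 8 elsewhere, and Ddx3y had 12 in tdTom+ replicate 3 and 2 in tdTom- replicate 3, with 1204 to 1537 elsewhere. This sets replicate 3 apart in both groups and does not tell replicates 1 and 2 apart. With the replicate block, 128 genes were higher and 167 lower over all genes, the same 4 members were called, and 1 gene of the wider list, Thbs1, was higher and 5 were lower. Members under about 1 CPM, such as Smad9 and Grem1, are limited by depth.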
